A study of Mus musculus with 13 samples.

Results

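Expression of 10 mouse genes of glycolysis and lactate metabolism (Hk1, Hk2, Pfkl, Aldoa, Pgk1, Pgam1, Bpgm, Ldha, Ldhb and Ldhc) was followed on 13 Illumina bead arrays of embryos, oocytes and cumulus cells. The genes were chosen by name, as all probes whose platform symbol is one of the 10. Of the 10 genes, 9 had a probe, 12 probes in all, and no probe carried the symbol Ldhb. A probe counted as detected when its detection p, how often a negative control bead was brighter, was under 0.01. Hk1 and Pgk1, with 1 probe each, were detected on 0 of the 13 arrays, so that 7 of the 10 genes were tested among 9787 tested genes, out of 16593 with a symbol on the array.

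The study asked how far transcription from a nucleus placed in an oocyte depends on DNA replication. Pools of embryos made by fertilization or by somatic cell nuclear transfer (SCNT) were cultured with aphidicolin (Aph+), which blocks DNA replication, or without it (Aph-). There were 3 arrays of Aph- fertilized embryos, 3 of Aph+ fertilized embryos, 3 of Aph- SCNT embryos, 1 of Aph+ SCNT embryos, 1 of metaphase II (MII) oocytes, the cell type every embryo starts from, and 2 of cumulus cells, the cell type that gave the transplanted nuclei. Oocytes and cumulus cells were untreated and are labelled B6C3F1. For embryos, the study names C3H/HeN oocytes with C57Bl/6J cumulus nuclei or injected C57Bl/6J sperm, whereas the labels say in vitro fertilization. By these strain names, embryos also differ in strain from the oocyte and cumulus arrays. In comparisons with those arrays, strain cannot be told apart from the other differences. Per the methods, aphidicolin was given at 2 µg/ml from 6 to 96 hours post activation. The study describes treated embryos as held at 1 cell and untreated ones as dividing, so that the drug and the stage reached cannot be told apart. The labels tell the 3 arrays of an embryo group apart as untimed (replicate 1), 96 h (replicate 2) and blastocyst (replicate 3), and name the cell type of every embryo array as blastocysts, also after aphidicolin. Nothing in the labels says whether the pools of a group came from separate days, so the p-values measure the spread between these arrays.

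Glycolysis turns glucose into pyruvate in the cytoplasm, and lactate dehydrogenase interconverts pyruvate and lactate. Mouse oocytes and early cleavage embryos are known to live on pyruvate and lactate and to use little glucose until compaction, when glucose uptake and glycolysis rise towards the blastocyst. Cumulus cells are glycolytic and hand pyruvate to the oocyte. Hexokinase, the phosphofructokinase subunit Pfkl, aldolase, phosphoglycerate kinase and phosphoglycerate mutase work in that order along the pathway. Bpgm makes 2,3-bisphosphoglycerate in a side branch. Lactate dehydrogenase is a tetramer of Ldha, Ldhb or the germ cell subunit Ldhc.

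To show the DNA in front of genes that moved in different ways below, the 250 bases before a RefSeq start site (GRCm38.p6) are printed for Hk2 and Aldoa, which were lower in Aph+ fertilized embryos, for Ldha, which was high on the Aph+ SCNT array, and for Ldhc, which was high in Aph+ fertilized embryos. Each runs 5′ to 3′ on the gene's strand, and capitals mark ACGTG, the core of the sites bound by hypoxia-inducible factor and by many basic helix-loop-helix factors, or TGACG, a partial site for CREB and ATF proteins, on either strand. Where a gene has several start sites, the one shown is the first for Ldha and Ldhc and the second for Aldoa. None of the windows left out held more matches: those of Aldoa held 0 and 1 to ACGTG, that of Ldha 0 to ACGTG and 1 to TGACG, and that of Ldhc 0 to either.
Hk2: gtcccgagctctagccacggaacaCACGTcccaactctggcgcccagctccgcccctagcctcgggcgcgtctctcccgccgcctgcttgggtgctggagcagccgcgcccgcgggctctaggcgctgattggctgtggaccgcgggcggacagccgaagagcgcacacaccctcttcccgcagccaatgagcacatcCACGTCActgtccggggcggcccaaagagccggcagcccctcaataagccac
Aldoa: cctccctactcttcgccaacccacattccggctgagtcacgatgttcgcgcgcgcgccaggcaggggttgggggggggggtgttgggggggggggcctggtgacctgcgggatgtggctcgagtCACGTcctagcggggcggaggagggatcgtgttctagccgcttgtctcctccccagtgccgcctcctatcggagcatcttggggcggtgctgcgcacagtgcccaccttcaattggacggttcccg
Ldha: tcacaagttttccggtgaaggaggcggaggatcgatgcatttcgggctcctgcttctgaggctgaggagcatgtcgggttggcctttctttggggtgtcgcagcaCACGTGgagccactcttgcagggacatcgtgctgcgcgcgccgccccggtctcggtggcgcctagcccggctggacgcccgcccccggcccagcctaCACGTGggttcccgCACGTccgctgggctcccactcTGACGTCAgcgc
Ldhc: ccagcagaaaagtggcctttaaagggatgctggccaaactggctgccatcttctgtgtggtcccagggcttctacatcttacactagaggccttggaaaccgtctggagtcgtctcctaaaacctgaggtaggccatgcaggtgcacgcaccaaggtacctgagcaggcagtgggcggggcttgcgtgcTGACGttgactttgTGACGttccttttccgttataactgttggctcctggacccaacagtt
These windows lie at chr6:82774455-82774704 on the minus strand (Hk2), chr7:126799255-126799504 on the minus strand (Aldoa), chr7:46845554-46845803 on the plus strand (Ldha) and chr7:46861013-46861262 on the plus strand (Ldhc). The Ldha window held 5 matches to ACGTG over both strands, because each of its 2 copies of CACGTG is read on both, and 2 matches to TGACG, which overlap in TGACGTCA. The Hk2 window held 2 matches to ACGTG and 1 to TGACG, which overlaps one of them, and the Aldoa window held 1 match to ACGTG. The Ldhc window held none to ACGTG and 2 to TGACG. Of 32851 such windows over all genes, 16.6% held ACGTG, 6.0% CACGTG and 17.8% TGACG, so such matches are common. All 10 genes had an entry, with 15 windows among them, and Pgam1 and Pgk1 also held ACGTG while Pfkl, Bpgm, Hk1 and Ldhb did not.

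The arrays differed in brightness before normalization. Mean probe intensity was 316 to 374 in Aph- fertilized embryos, 116 to 129 in Aph+ fertilized embryos, 184 to 313 in Aph- SCNT embryos, 89.8 on the Aph+ SCNT array, 289 in the oocyte and 145 and 465 in cumulus cells, over backgrounds of 72.1 to 115. Quantile normalization gives every array the same distribution, so a level below is relative to the other genes of the same array. All levels are neqc log2 values, background-corrected and normalized intensities with an offset of 16 that shrinks differences between dim values. Fewer cells of a type and less RNA per cell cannot be told apart in these pools. The cell type label blastocysts did not match the markers after aphidicolin: all 12 tested trophectoderm and blastocyst markers were detected on each Aph- embryo array, against 7 or 8 on the Aph+ arrays, where their summed level (linear neqc scale) was 1895 to 5723 instead of 25119 to 29530. Of 19 cumulus cell markers, 17 and 18 were detected in cumulus cells, 5 to 7 in Aph- fertilized embryos, 4 to 7 in Aph+ fertilized embryos, 6 in Aph- SCNT embryos, 7 in the oocyte and 16 on the Aph+ SCNT array.

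**Figure D1:**
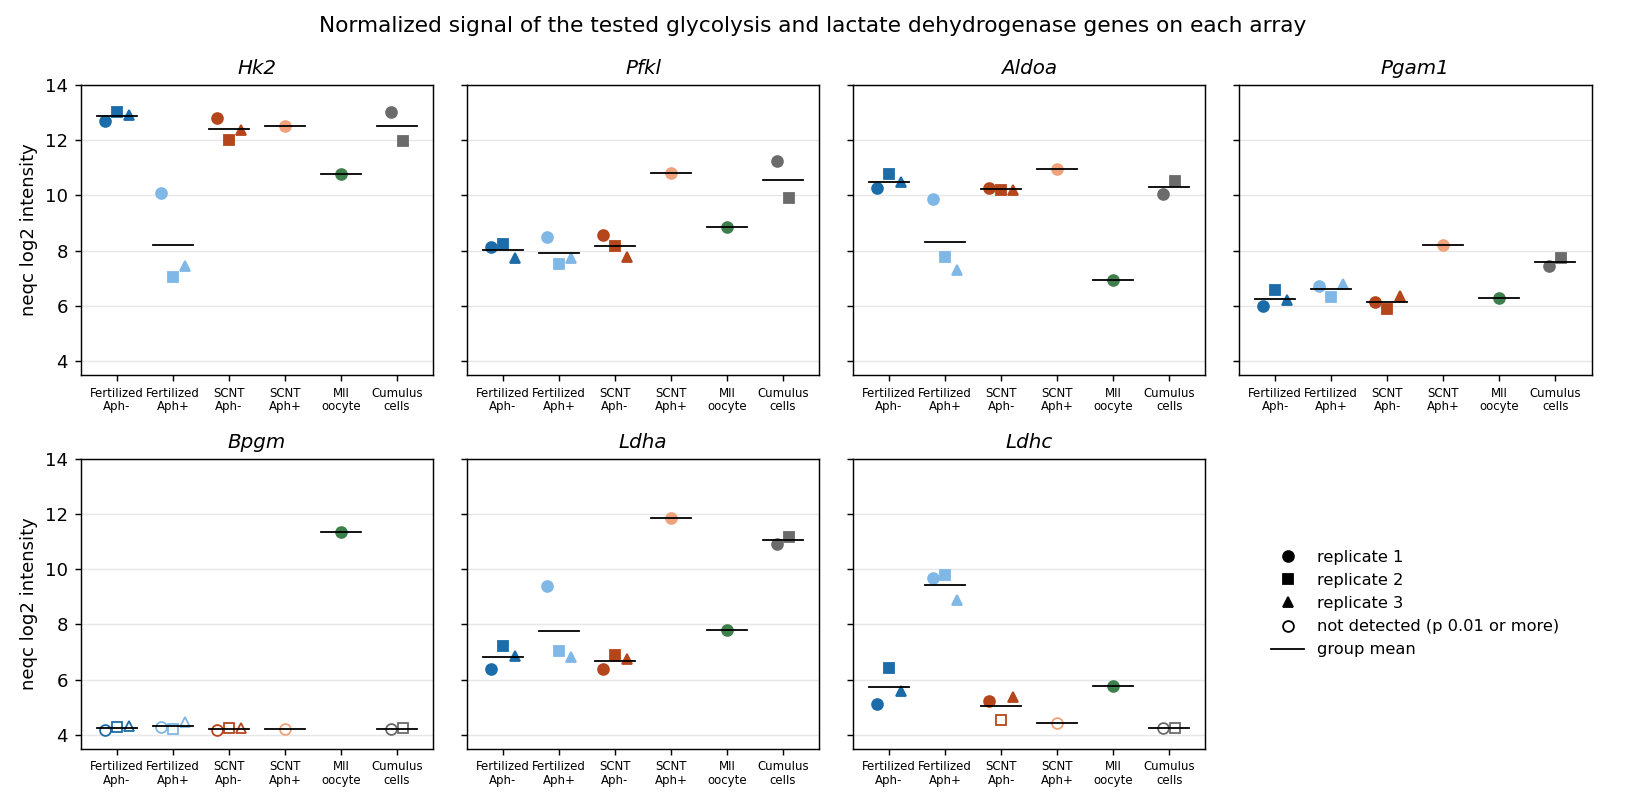
Level of each tested gene (neqc log2 intensity, vertical axis) on each of the 13 arrays, by group, with the group mean as a line and open symbols where the probe was not detected. Hk2 and Aldoa lie between 7.05 and 10.1 in Aph+ fertilized embryos, below their other embryo groups, Ldhc lies at 8.87 to 9.78 there, Bpgm is detected only in the oocyte, and Ldha reaches 11.9 on the Aph+ SCNT array.

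Hk2, the insulin- and hypoxia-responsive hexokinase that commits glucose to the cell, was lower in Aph+ fertilized embryos than in any other group. Its level was 12.69, 13.02 and 12.92 in Aph- fertilized embryos, 12.80, 12.01 and 12.37 in Aph- SCNT embryos, 12.51 on the Aph+ SCNT array and 13.02 and 11.98 in cumulus cells. These 4 groups overlapped in the range of the 2 cumulus arrays. The oocyte stood lower at 10.78, and Aph+ fertilized embryos lower again at 10.08, 7.05 and 7.45, with replicate 1 far above the other two. In deposited intensity, Aph- fertilized embryos gave 10615, 12245 and 12193 and Aph+ fertilized embryos 311, 110 and 105, where the backgrounds were 76.6 to 79.5. The Aph+ SCNT array was also dimmer, at 968 against 10869, 3060 and 5427 in Aph- SCNT embryos. The similar Hk2 levels of these SCNT groups thus appear only after normalization between arrays. The single Hk1 probe, for the hexokinase most tissues use, had intensities of 74.6 to 120 and a lowest detection p of 0.140, so no level can be given.

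Pfkl, the liver-type subunit of phosphofructokinase, was detected on all 13 arrays with its brighter probe. The level was 8.13, 8.26 and 7.73 in Aph- fertilized embryos, 8.49, 7.505 and 7.73 in Aph+ fertilized embryos and 8.55, 8.16 and 7.78 in Aph- SCNT embryos, which overlapped throughout. It was 8.86 in the oocyte, above all of those, and 10.81 on the Aph+ SCNT array, between the 11.24 and 9.90 of the 2 cumulus arrays. Before normalization the Aph+ SCNT array read 169.9 above background, within the 151.5 to 509 of the Aph- SCNT arrays. The other Pfkl probe (ILMN_2871325) was detected on only 4 arrays and reached 5.69 on the Aph+ SCNT array, where it was not detected.

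Aldoa, the aldolase that splits fructose 1,6-bisphosphate in most cells, was low in the oocyte, at 6.93. It stood at 10.26, 10.76 and 10.48 in Aph- fertilized embryos, 10.26, 10.19 and 10.19 in Aph- SCNT embryos, 10.95 on the Aph+ SCNT array and 10.07 and 10.51 in cumulus cells. In Aph+ fertilized embryos it was 9.85, 7.76 and 7.31, and as for Hk2 replicate 1 lay nearer the untreated embryos than the other two did. In deposited intensity the Aph+ SCNT array read 263 for Aldoa, below the 1825, 755 and 1063 of Aph- SCNT embryos. The single Pgk1 probe, for the kinase that makes the first ATP of the pathway, was at 71.4 to 107 in intensity with a lowest detection p of 0.133, and no level can be given.

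Pgam1, the mutase that moves the phosphate of 3-phosphoglycerate, was detected on all 13 arrays. Its level was 6.002, 6.58 and 6.21 in Aph- fertilized embryos, 6.72, 6.34 and 6.80 in Aph+ fertilized embryos, 6.13, 5.90 and 6.35 in Aph- SCNT embryos and 6.27 in the oocyte. The values of these 4 groups interleaved. Cumulus cells were higher at 7.43 and 7.72, and the Aph+ SCNT array was at 8.22. Its deposited intensity there was only 99.1 over a background of 72.1, and 110, 170 and 153 were read in the Aph- SCNT embryos over backgrounds of 85.5 to 97.8, so that above background the Aph+ SCNT array read 26.97 and the Aph- SCNT arrays 24.0 to 72.2.

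Bpgm, best known from red blood cells, where 2,3-bisphosphoglycerate loosens the grip of haemoglobin on oxygen, was detected on 1 of the 13 arrays, the MII oocyte. The oocyte level was 11.35, an intensity of 4031, whereas all embryo and cumulus arrays had intensities of 70.0 to 113 and levels of 4.16 to 4.48 with no detection. Of 4 tested red blood cell markers, 0 were detected in the oocyte, and the part of red blood cells in the Bpgm level was not tested. With 1 oocyte array the spread of this level between oocyte pools is unknown.

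Ldha, the subunit that favours the conversion of pyruvate to lactate, was detected on every array. Its level was 6.39, 7.23 and 6.85 in Aph- fertilized embryos, 6.37, 6.90 and 6.74 in Aph- SCNT embryos and 7.81 in the oocyte. Fertilized Aph+ embryos had 9.40, 7.05 and 6.82, so that replicates 2 and 3 lay among the untreated embryos and replicate 1 above them. Cumulus cells were at 10.91 and 11.18 and the Aph+ SCNT array at 11.87, above both. The deposited intensity, before any scaling, was also higher on the dim Aph+ SCNT array, at 532, than in Aph- SCNT embryos, at 187, 142 and 175.

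Ldhc, the subunit known from male germ cells and also from oocytes, was high in one group. Its brightest probe (ILMN_2930177) stood at 9.66, 9.78 and 8.87 in Aph+ fertilized embryos, against 5.12, 6.43 and 5.60 in Aph- fertilized embryos and 5.77 in the oocyte. The 3 Aph+ fertilized arrays were above the other 10. In Aph- SCNT embryos it was 5.23, 4.53 and 5.36, detected on 2 of the 3 arrays, and it was not detected on the Aph+ SCNT array or in cumulus cells. The second probe (ILMN_1248952) gave 9.01, 9.51 and 8.83 in Aph+ fertilized embryos and 4.19 to 5.83 elsewhere, and the third (ILMN_2665749) was detected on 0 of the 13 arrays. Even in Aph+ fertilized embryos the signal was modest, at 166 to 319 in intensity for the brightest probe, which overlapped the 135 to 206 of Aph- fertilized embryos. With the backgrounds of 76.6 to 79.5 and 97.4 to 104 taken off, 89.1 to 239.8 still overlapped 32.1 to 108.7, so that for this probe the 2 groups were apart only after normalization between arrays. The second probe was apart already without it, at 85.8 to 193.3 against 28.3 to 60.1 above background.

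**Figure D2:**
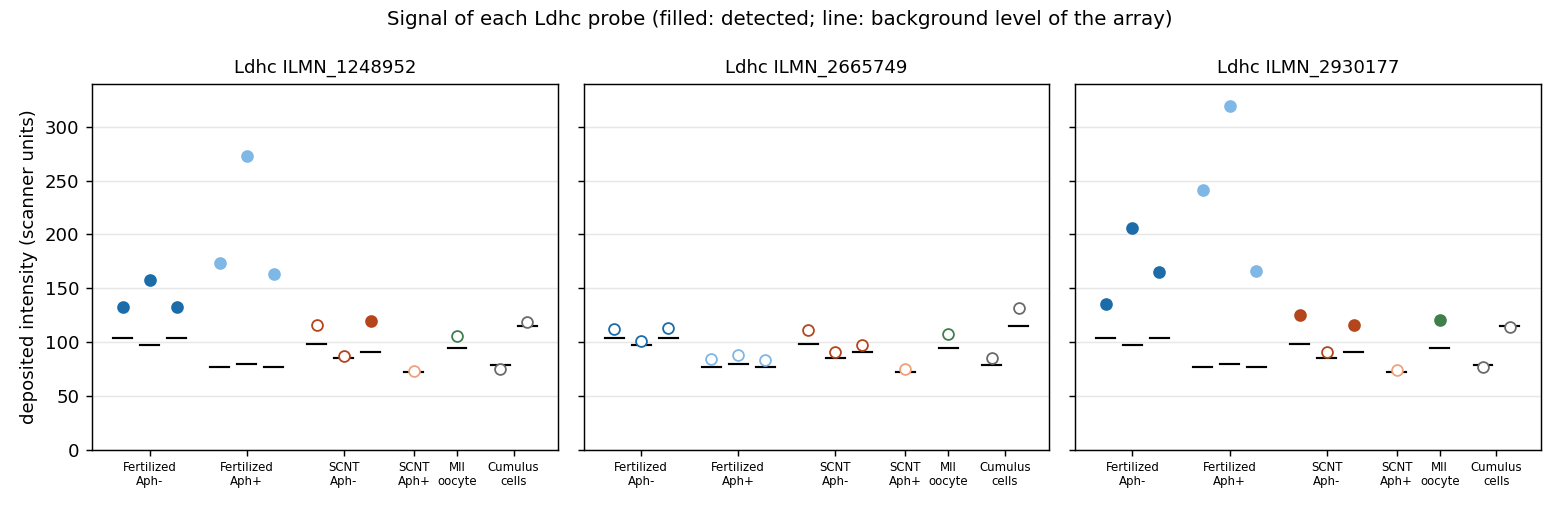
Deposited intensity (vertical axis, scanner units) of the 3 Ldhc probes on each array, by group, filled where detected, with the background level of each array as a short line. In Aph+ fertilized embryos the brightest probe reads 166 to 319, or 89.1 to 239.8 above background, against 32.1 to 108.7 above background in Aph- fertilized embryos, and the middle probe stays near background on every array.

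Aphidicolin after fertilization was followed by lower Hk2 and Aldoa and higher Ldhc. Hk2 was lower in Aph+ than in Aph- fertilized embryos by 4.69 ± 0.68 (SE) on the log2 scale, 25.8-fold (adjusted p = 0.000432). Its means were 8.19 ± 1.65 and 12.88 ± 0.17 (SD, n = 3 each). Aldoa was lower by 2.19 ± 0.54, 4.57-fold (adjusted p = 0.00896), and Ldhc was higher by 3.72 ± 0.38, 13.2-fold (adjusted p = 5.09e-05). The arrays of the 2 groups did not overlap for these 3 genes. The share of all genes without overlap was not counted, so this is not read as particular to them. Pfkl, Pgam1 and Ldha did not pass the test, with 95% intervals of -1.004 to 0.75, -0.16 to 0.87 and -0.38 to 2.25. Over all 9787 genes 19.1% were called higher and 25.1% lower in this comparison, beside 1 member higher and 2 lower of 7, close to the shares over all genes. The median difference was 0.07 over the 7 members and -0.03 over all genes. In the same comparison 12 of 14 tested oocyte markers were higher and 0 lower, with summed levels of 21947 to 29359 in Aph+ against 1806 to 2154 in Aph- fertilized embryos and 36324 in the oocyte, and their part in the member levels was not tested.

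Replicate 1 of the Aph+ fertilized embryos widened the error of Hk2 and Aldoa, but not that of Ldhc. Without it the difference was -5.63 ± 0.35 for Hk2 and -2.96 ± 0.24 for Aldoa (adjusted p = 7.50e-06 and 2.50e-05), Ldhc stayed higher by 3.61 ± 0.43 (adjusted p = 0.000215), and the Ldha difference shrank to 0.11 ± 0.28. The same array had the highest summed level of its group over the 19 cumulus markers, 3329 against 2145 and 1540. Of these markers, 7 were detected on this array, against 7 and 4. Timp1, an inhibitor of metalloproteinases, stood at 10.12 on it against 8.29 and 8.74, and Hsd17b1, a steroid dehydrogenase of granulosa cells, at 8.85 against 6.38 and 5.39 (not detected on the last). Not all markers shared the higher sum. Amhr2 stood at 8.94 on replicate 1 against 9.76 and 8.73, and Fst was detected only on replicate 2, at 6.53. The part of cumulus transcripts in the levels of Hk2, Aldoa and Ldha on replicate 1 was not tested.

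Aphidicolin after nuclear transfer was followed by higher Ldha, Pfkl and Pgam1, and the other 4 members were not called. Ldha was higher by 5.20 ± 0.83, 36.6-fold (adjusted p = 0.00145), Pfkl by 2.64 ± 0.55, 6.25-fold (adjusted p = 0.00611), and Pgam1 by 2.09 ± 0.32, 4.26-fold (adjusted p = 0.00122), each on the 1 Aph+ array against 3 Aph- arrays. Over all genes 13.7% were called higher and 14.7% lower, set beside 3 of 7 members higher and 0 lower. Hk2 differed by 0.12 with a 95% interval of -2.04 to 2.28, and Aldoa by 0.73 (-0.99 to 2.45), neither past the test. Ldhc was not called and was not detected on the Aph+ array. The other Pfkl probe differed by 0.91 ± 0.46 and was not called (adjusted p = 0.184). When each array was scaled to its 75th percentile instead, Ldha stayed higher by 3.69 ± 0.63 (adjusted p = 0.000394), whereas Pfkl (0.81 ± 0.51, adjusted p = 0.208) and Pgam1 (0.71 ± 0.46, adjusted p = 0.221) were no longer called, and the differences of Hk2 (-1.31) and Aldoa (-1.05) were below 0. The Aph+ SCNT group is 1 array, and its spread was taken from the other groups.

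**Figure D3:**
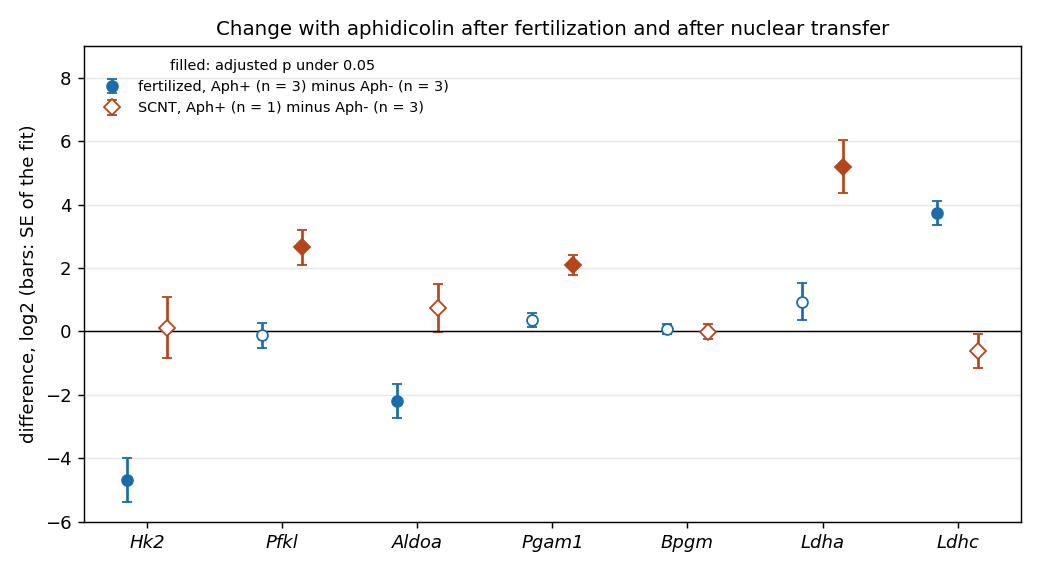
Difference with aphidicolin on the log2 scale (vertical axis) for each tested gene, after fertilization (circles) and after SCNT (diamonds), with the standard error of the fit as bars and filled symbols where the adjusted p was under 0.05. Hk2 lies at -4.69 after fertilization and 0.12 after SCNT, Ldha at 0.94 and 5.20, and Ldhc at 3.72 after fertilization. The Ldhc point after SCNT uses an Aph+ array on which the probe was not detected.

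The change with aphidicolin itself differed between the 2 kinds of embryo for 6 of the 7 members, by the interaction term of the same model. The SCNT effect exceeded the fertilization effect by 4.80 ± 1.18 for Hk2 (adjusted p = 0.0149), 2.77 ± 0.68 for Pfkl (0.0145), 2.92 ± 0.94 for Aldoa (0.0457), 1.73 ± 0.40 for Pgam1 (0.0107) and 4.26 ± 1.01 for Ldha (0.0130). For Ldhc the SCNT effect was lower (0.00148), with no size given because the probe was not detected on the Aph+ SCNT array. The other Pfkl probe gave 0.65 (adjusted p = 0.459) and ended the Pfkl call. Over all genes 13.8% had a higher and 12.4% a lower effect after SCNT, beside 5 and 1 of the 7 members. Set directly against Aph+ fertilized embryos, the Aph+ SCNT array was higher in Hk2 (4.32 ± 0.96), Pfkl (2.90 ± 0.55, or 0.75 and not called with the other probe), Aldoa (2.64 ± 0.77), Pgam1 (1.60 ± 0.32) and Ldha (4.11 ± 0.83) and lower in Ldhc, at least 11.1-fold (adjusted p = 0.000166), where 16.9% of all genes were called higher and 14.4% lower. "At least" is used where a probe was not detected in the dimmer group, which was then put at the lowest detected signal of its arrays. Under 75th percentile scaling Aldoa (1.57, adjusted p = 0.154) and Pgam1 (0.61, adjusted p = 0.615) were no longer called. Both of these comparisons and the one within SCNT embryos share the single Aph+ SCNT array. Of the 6 differences in the effect, Aldoa is the least settled, with an adjusted p between 0.000243 and 0.127 over 21 alternative settings, 14 of which ended its call. Under 75th percentile scaling the differences in effect of Pfkl, Pgam1 and Ldhc were no longer called either, and only those of Hk2 and Ldha were.

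The 3 genes called higher on the Aph+ SCNT array than in Aph- SCNT embryos were also called higher in cumulus cells than in Aph- SCNT embryos. Both comparisons share the Aph- SCNT arrays, and the share of all genes called in both was not counted. The other Pfkl probe was called in neither comparison. Under 75th percentile scaling Pfkl and Pgam1 lost the first of these calls. The summed level of the 19 cumulus markers was 11017 on that array, 1033 to 1406 in Aph- SCNT embryos, 1540 to 3329 in Aph+ fertilized embryos, 1651 in the oocyte and 13575 and 14448 in cumulus cells. Timp1 stood at 12.15 on the Aph+ SCNT array and 12.41 and 12.69 in cumulus cells. Col4a1, a basement membrane collagen, stood at 10.82 against 10.62 and 10.94 in cumulus cells, and Hsd17b1 at 9.54 against 10.38 and 9.92 in cumulus cells. Of the 19 markers, Has2, Grem1 and Foxl2 were not detected on it. Over the 13 arrays, the median cumulus marker level correlated with Ldha at r = 0.936, with Pfkl at 0.901 and with Pgam1 at 0.870, but with Hk2 at 0.158, Aldoa at 0.204 and Ldhc at -0.367. These are descriptions over 13 arrays that share groups and normalization, and the first 3 rest on the Aph+ SCNT and cumulus arrays, which lie apart from the rest. The part of cumulus transcripts in the Aph+ SCNT levels was not tested. Oocyte markers were present on the same array, with 10 of 14 detected and a summed level of 37968 against 36324 in the oocyte.

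**Figure D4:**
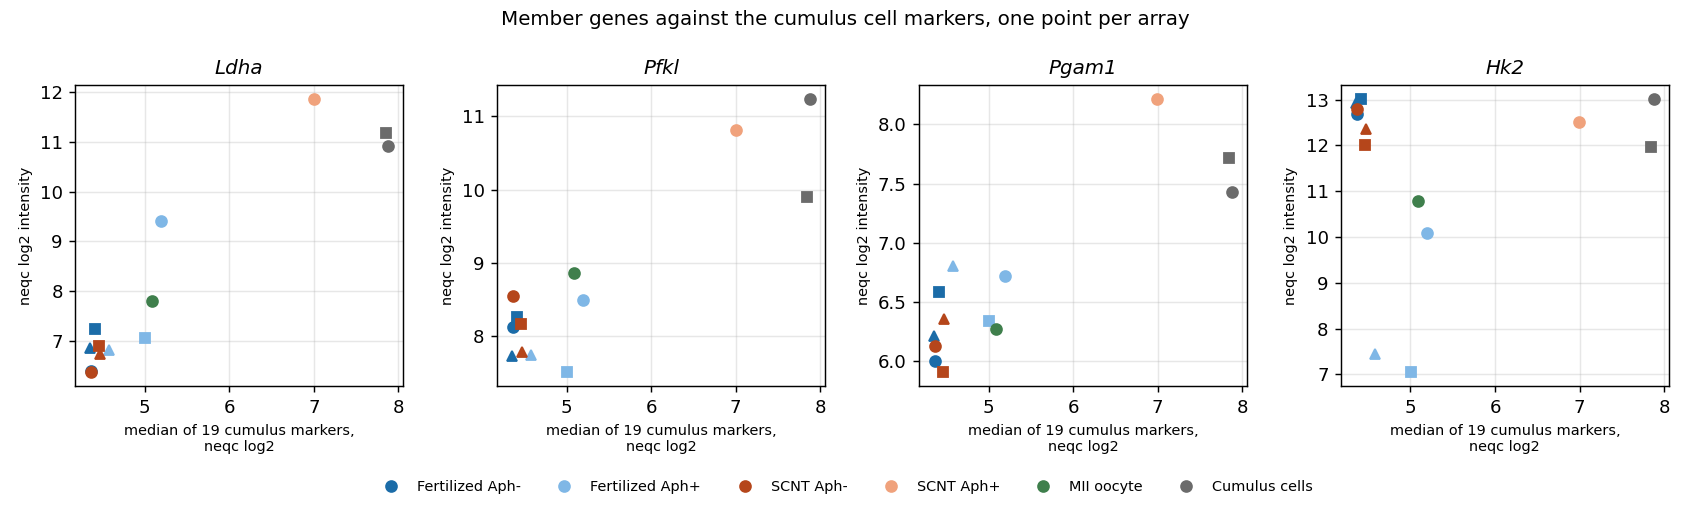
Level of Ldha, Pfkl, Pgam1 and Hk2 (vertical axes, neqc log2 intensity) against the median level of 19 cumulus cell markers (horizontal axis, neqc log2), one point per array and coloured by group, with symbols for replicates 1 (circle), 2 (square) and 3 (triangle). The Aph+ SCNT array, at a marker median of 6.998, lies near the cumulus arrays at 7.85 and 7.88 for the first 3 genes, and the other 10 arrays lie at 4.36 to 5.19.

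Without aphidicolin, SCNT and fertilized embryos did not differ detectably in any of the 7 members. The differences ran from -0.68 (Ldhc) to 0.13 (Pfkl), the adjusted p-values from 0.685 to 1, and the median was -0.15 over the members and 0.00 over all genes. The 95% interval was -2.01 to 1.04 for Hk2, -1.47 to 1.16 for Ldha and -1.53 to 0.18 for Ldhc, so that differences of about that size cannot be told from none with 3 arrays a group. Few genes differed at all: 0.163% were called higher and 0.398% lower in Aph- SCNT embryos.

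Against the MII oocyte, Bpgm was lower in all 5 other groups and Aldoa higher in 4 of them. Aldoa was higher by 3.57 ± 0.77 in Aph- fertilized embryos (11.9-fold, adjusted p = 0.00377), 3.29 ± 0.77 in Aph- SCNT embryos (adjusted p = 0.00579), 4.02 ± 0.94 on the Aph+ SCNT array (adjusted p = 0.00906) and 3.36 ± 0.81 in cumulus cells (adjusted p = 0.00801), but by 1.38 with a 95% interval of -0.34 to 3.10 in Aph+ fertilized embryos. Bpgm was lower by at least 95.1-fold in Aph- fertilized embryos, 44.8-fold in Aph+ fertilized embryos, 77.2-fold in Aph- SCNT embryos, 41.8-fold on the Aph+ SCNT array and 72.5-fold in cumulus cells. Bpgm entered the test only through its detection on the oocyte array, so the filter fixed this direction and no p-value is given. These 5 comparisons share the 1 oocyte array, so its own deviation enters all of them alike.

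Ldhc was higher by 3.67 ± 0.54 in Aph+ fertilized embryos (12.8-fold, adjusted p = 0.000382), and differed by -0.05 and -0.73 in Aph- fertilized and Aph- SCNT embryos. Ldha was higher by 4.06 ± 1.01 on the Aph+ SCNT array (adjusted p = 0.0126) and 3.23 ± 0.88 in cumulus cells (adjusted p = 0.0141), the 2 samples in which Pgam1 was also higher, by 1.95 ± 0.40 and 1.30 ± 0.34 (adjusted p = 0.00451 and 0.0122). Under 75th percentile scaling both Pgam1 calls were lost, at 0.63 (adjusted p = 0.459) and 1.19 (adjusted p = 0.0600). Pfkl was higher in cumulus cells by 1.71 ± 0.59 (adjusted p = 0.0390), a call that 9 of 21 alternative settings ended. On the Aph+ SCNT array Pfkl was not called, with a difference of 1.95 ± 0.68 (adjusted p = 0.0505) that turned to -0.31 under 75th percentile scaling. Hk2, which differed from the oocyte by 2.10 in Aph- fertilized embryos and by -2.59 in Aph+ fertilized embryos, passed the test in neither (adjusted p = 0.108 and 0.0565). Without Aph+ fertilized replicate 1 both passed, as did Hk2 in the other 3 groups.

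Counted over the 7 members, 1 was higher and 1 lower than in the oocyte in Aph- fertilized embryos, where 23.7% and 21.2% of all genes were called, and likewise in Aph+ fertilized embryos (18.6% and 22.4%) and Aph- SCNT embryos (23.7% and 21.5%). On the Aph+ SCNT array 3 were higher and 1 lower (17% and 16.6%), and in cumulus cells 4 were higher and 1 lower (22.6% and 20.1%). In the first 3 groups the counts are at or below the shares over all genes. The 1 lower member was Bpgm in every group, which was kept only by its detection in the oocyte.

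Against cumulus cells, Aph- SCNT embryos were lower in Ldha, with a log2 difference of -4.37 ± 0.66 (20.7-fold, adjusted p = 0.000742), in Pfkl (-2.41 ± 0.44, adjusted p = 0.00227) and in Pgam1 (-1.45 ± 0.26, adjusted p = 0.00196), 3 of 7 members, where 17.5% of all genes were called higher and 16.4% lower. The other Pfkl probe gave -0.10 (adjusted p = 0.911). The Aph+ SCNT array differed from cumulus cells in 0 of 7 members by limma at adjusted p under 0.05, and 4.39% of all genes were called higher and 2.6% lower. Its intervals were wide, -1.14 to 2.79 for Ldha and -1.08 to 1.55 for Pfkl.

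Other enzymes of glycolysis, from a list of 16 of which 11 were on the array and 10 tested, were in part also lower with aphidicolin in fertilized embryos. In Aph+ against Aph- fertilized embryos 4 of the 10 were lower and 0 higher, beside 25.1% and 19.1% of all genes, with a median of -0.34 against -0.03 over all genes: Tpi1, the triose phosphate isomerase (-2.29, adjusted p = 0.0157), Gapdh (-2.10, adjusted p = 0.000172), the pyruvate kinase Pkm (-0.67, adjusted p = 0.0196) and the neuronal enolase Eno2, which was not detected in Aph+ fertilized embryos, so that no fold is given. Tpi1 repeated the split within the Aph+ fertilized group, at 11.09 on replicate 1 and 8.21 and 8.56 on the others. In Aph+ against Aph- SCNT embryos 3 were higher and 1 lower, beside 13.7% and 14.7% of all genes: the platelet-type phosphofructokinase Pfkp (at least 7.38-fold), Aldoc (at least 3.33-fold) and Pkm (1.41) were higher and the muscle mutase Pgam2 was lower by at least 5.13-fold. Pfkp and Aldoc were otherwise detected in cumulus cells and, for Aldoc, on 1 Aph- fertilized and 1 Aph+ fertilized array, replicate 1 in both. Eno2 was the 1 enzyme of the list that differed between Aph- SCNT and Aph- fertilized embryos, higher by 1.72 ± 0.30 (adjusted p = 0.0422).

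Against the oocyte no enzyme of the list was lower. It had 4 of 10 higher and 0 lower in Aph- fertilized embryos, 3 and 0 in Aph+ fertilized embryos, 5 and 0 in Aph- SCNT embryos, 5 and 0 on the Aph+ SCNT array and 6 and 0 in cumulus cells, where 23.7%, 18.6%, 23.7%, 17% and 22.6% of all genes were called higher, with medians of 0.76, 0.78, 1.24, 2.18 and 2.79, against 0.03 to 0.08 over all genes. Tpi1 (3.36), Gapdh (3.21) and Pkm (2.15) were among the 4 of Aph- fertilized embryos. The other, Pgam2, was higher by at least 3.64-fold there, 7.36-fold in Aph+ fertilized embryos and 6.28-fold in Aph- SCNT embryos, and was not detected in the oocyte, in cumulus cells or on the Aph+ SCNT array. Pgam1 had its 3 highest levels on the Aph+ SCNT and cumulus arrays.

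**Figure D5:**
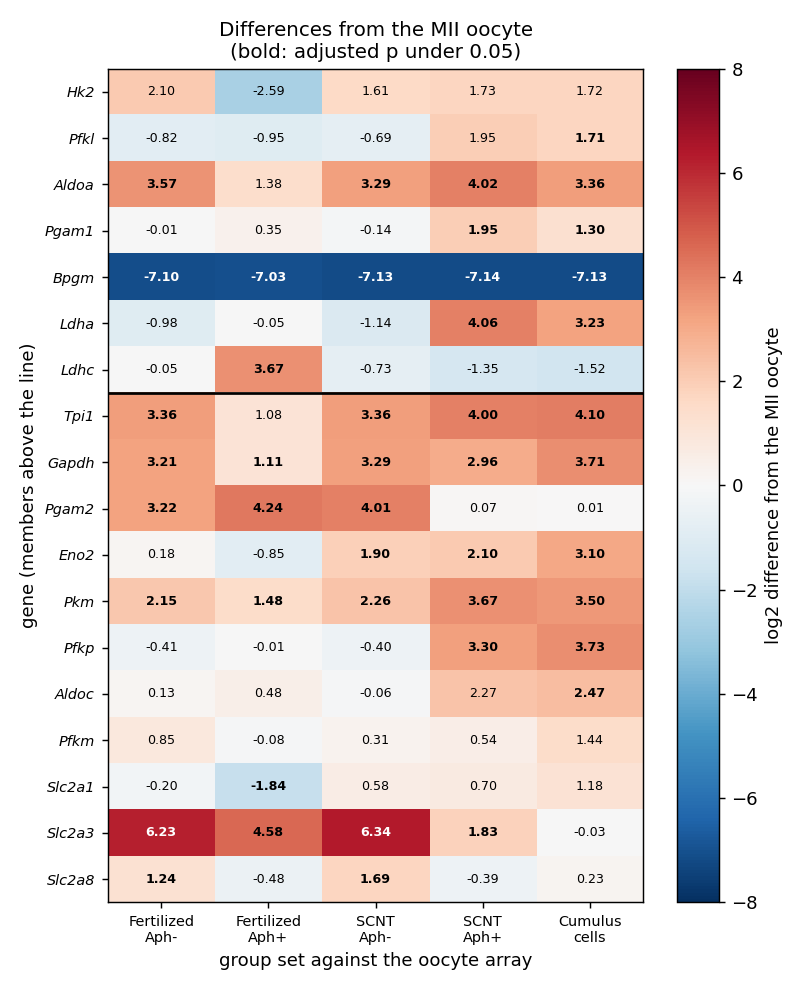
Log2 difference from the MII oocyte (colour and printed value) for the 7 tested members, above the line, and 11 other genes of glycolysis and glucose uptake, below it, in each of 5 groups, in bold where the adjusted p was under 0.05. Bpgm, detected only in the oocyte, is lower by at least 41.8-fold in every group, and printed values of genes not detected on one side are no exact sizes. Aldoa is called above the oocyte in 4 of the 5, and Slc2a3 lies above it by 6.23 and 6.34 in the untreated embryos.

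Of a list of 13 glucose, monocarboxylate and pyruvate carriers, 9 were on the array and only 3, all glucose carriers, were tested. In Aph- fertilized embryos 2 of the 3 were higher than in the oocyte and 0 lower, beside 23.7% and 21.2% of all genes. Slc2a3 (GLUT3), which is known to bring glucose into the mouse blastocyst, was higher by 6.23 ± 0.38 in Aph- fertilized embryos (75.1-fold), 6.34 ± 0.38 in Aph- SCNT embryos, 4.58 ± 0.38 in Aph+ fertilized embryos and 1.83 ± 0.47 on the Aph+ SCNT array. Aphidicolin was followed by lower Slc2a3 in both kinds of embryo, by -1.65 ± 0.27 after fertilization and -4.50 ± 0.38 after SCNT (adjusted p = 0.000897 and 4.91e-05). Slc2a8 was lower by at least 1.21-fold and 1.54-fold in the same comparisons. Slc2a1 (GLUT1) was lower after fertilization, by -1.64 ± 0.36 (adjusted p = 0.00485), and differed by 0.13 ± 0.51 after SCNT (adjusted p = 0.918).

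Of a list of regulators of glycolysis and pyruvate dehydrogenase, 14 were tested. In Aph- fertilized embryos 5 were lower and 2 higher than in the oocyte, and the same counts held in Aph- SCNT embryos, beside 21.2% and 21.5% of all genes lower and 23.7% higher in both. Pdp1, which switches pyruvate dehydrogenase on, was lower by at least 9.63-fold in Aph- fertilized embryos, and the kinases Pdk1 (-3.26 ± 0.54) and Pdk3 (-2.18 ± 0.45), which switch it off, were lower too, while Pdha1, its catalytic subunit, was higher by 2.19 ± 0.64. Aphidicolin was followed by higher Pdk1 in both kinds of embryo (1.34 ± 0.38 after fertilization, at least 6.29-fold after SCNT) and by lower Pdha1 (-2.12 ± 0.45 and -1.93 ± 0.64). Pfkfb2, also on the list, was detected on every Aph- embryo array, at means of 6.37 after fertilization and 6.22 after SCNT. It was not detected on any Aph+ embryo array. The lowest detected signal of those arrays was 5.67 to 6.15, little below these means, so no large difference can be read. Pdk3 and Dld, a subunit shared by the 2-oxoacid dehydrogenases, were higher on the Aph+ SCNT array by at least 3.46-fold and by 2.41 ± 0.74. Of 9 tested genes of the pentose phosphate pathway and gluconeogenesis, 4 were lower and 0 higher in Aph+ than Aph- fertilized embryos (25.1% and 19.1% of all genes), among them Fbp2 (-4.08 ± 0.93) and Pgls (-1.58 ± 0.33).

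Of the 8 germ cell forms of glycolytic enzymes listed, 4 had a probe and 2, Pgam2 and Eno4, were tested. Neither was called in Aph+ against Aph- fertilized embryos, with a difference of 1.02 ± 0.49 for Pgam2, while Eno4 was not detected in Aph+ fertilized embryos. Eno4 was detected on 1 of the 13 arrays. Of 2 tested sperm markers, Spam1 and Odf2, 1 or 2 were detected on each Aph+ fertilized array and 1 on each Aph- fertilized array. The Aph+ SCNT array had 2 detected, and each Aph- SCNT, oocyte and cumulus array had 1. Detection of these markers was therefore not limited to embryos made with sperm.

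The genes whose levels ran most like Ldha over the 13 arrays were Rab33a (r = 0.986), Cyp11a1 (r = 0.984), the side-chain cleavage enzyme of steroid synthesis and one of the cumulus markers, and Mgst1 (r = 0.983). Those most like Ldhc were Pank3 (r = 0.976), a pantothenate kinase, Ncbp3 (r = 0.969) and the transketolase-like Tktl1 (r = 0.968). Those most like Bpgm, Gpr158, Gpr63 and Ipcef1 (r = 0.9991, 0.9990 and 0.9990), rest on the oocyte array, where Bpgm was detected. Among the members themselves, Ldha and Pgam1 (r = 0.925), Pfkl and Ldha (r = 0.892) and Hk2 and Aldoa (r = 0.804) ran together, and Hk2 and Ldhc ran in opposite directions (r = -0.840). These correlations describe 13 arrays that share groups and normalization.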

How the data were processed

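The authors hybridized amplified cRNA from pooled embryos, oocytes and cumulus cells to Illumina Mouse WG6 v2 BeadChips and read them with BeadStudio 3.2. The deposited table holds probe intensities without normalization and a detection p-value for each probe and array. A second deposited table holds the authors' log2 values of the same arrays, all with a median of 1.35, and was used as an alternative. The submitters' processing notes also name RMA and lumi without a role. The labels and the methods name different amplification kits.

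Intensities were processed with neqc (limma 3.58.1, R 4.3.3), which took the mean and spread of the negative control beads from the detection p-values, with an offset of 16. Of 25697 probes, those detected (p under 0.01) on at least 1 array and annotated with 1 symbol were kept (12579), and 1719 had no single symbol. The brightest probe stood for a gene. One limma model (lmFit, eBayes) held all 13 arrays in 6 groups, with 7 residual degrees of freedom, so groups of 1 array borrow the spread of the others. Tests were two-sided with Benjamini-Hochberg adjustment over 9787 genes in each comparison, intervals are 95%, and the number of arrays limits the precision. The procedure was tested on simulated data. Probe sequences were not used here, so cross-hybridization between related genes and processed pseudogenes was not checked.

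Members and gene lists were chosen with earlier results of these data known. All members are named. Of the lists, at most 4 called genes in each comparison were named by size of change, with the 3 genes most like Ldha, Ldhc and Bpgm over the arrays and up to 3 markers of a cell type. Amhr2 and Fst were added as cumulus markers that ran the other way within Aph+ fertilized embryos. Alternatives covered background correction, scaling, filters, probes, the samples and blocks in the model, the variance model, the threshold and each array left out. Within-array differences of Ldha and Ldhb, Pgam1 and Bpgm, and Hk1 and Hk2 were planned and not run, because Ldhb had no probe under that symbol and Bpgm and Hk1 were not detected in the embryos.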

Additional observations from a re-analysis of the deposited data

Results flagged for a closer look

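In 6 genes the effect of aphidicolin differed between SCNT and fertilized embryos by the interaction term of the limma model. The effect after SCNT minus that after fertilization was 4.80 on the log2 scale for Hk2, 2.77 for Pfkl, 2.92 for Aldoa, 1.73 for Pgam1, 4.26 for Ldha and -4.34 for Ldhc. The adjusted p-values ran from 0.00148 to 0.0457, and 13.8% of all genes were called in the higher and 12.4% in the lower direction. All 6 values rest on the single Aph+ SCNT array, on which 16 of 19 cumulus markers were detected, against 6 on each Aph- SCNT array, and the part of this in the differences was not tested. The Ldhc value is no exact size, because its probe was not detected on the Aph+ SCNT array. The other Pfkl probe gave 0.65 (adjusted p = 0.459). Under 75th percentile scaling only the differences of Hk2 and Ldha were still called. No formal outlier test was run, because no group held more than 3 arrays.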

How the results depend on the processing

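No alternative reversed a called difference. When the 75th percentile was used to scale arrays, the number of members called was 5 for Aph+ against Aph- fertilized embryos, 1 for Aph+ against Aph- SCNT embryos, 4 for Aph+ fertilized embryos against the oocyte, 3 for cumulus cells against the oocyte and 2 for the interaction. One of the 5 is Bpgm, which was not detected in either group, so no change is read from it. With only the groups compared in the model, 0 members were called between Aph+ SCNT and Aph+ fertilized embryos, and 4 in Aph- fertilized and 4 in Aph- SCNT embryos against the oocyte. A filter of detection on at least 3 arrays, which removes Bpgm, left 1 in each of the last 2. Leaving out 1 array at a time gave 2 to 4 in each of these 2 comparisons, with 4 without Aph+ fertilized replicate 1. With the 75th percentile the interaction was no longer called for Pfkl (1.93, adjusted p = 0.0643), Aldoa (2.06, 0.127), Pgam1 (0.84, 0.464) and Ldhc (-2.46, 0.0735), but was for Hk2 (4.13) and Ldha (3.56). The Ldha call in cumulus cells against the oocyte was lost without cumulus replicate 2 (adjusted p = 0.0564), and Aldoa in Aph+ against Aph- fertilized embryos with only these groups (0.0524). The labels number nearly every array as replicate 1, so they do not pair arrays. With the sample type label (untimed, 96 h, blastocyst) as a replicate block, 4 of 7 members kept an interaction call, with 3.27 for Aldoa (adjusted p = 0.0756) and 1.62 for Pgam1 (0.0505) lost, and Aldoa between Aph+ SCNT and Aph+ fertilized embryos (2.99) had an adjusted p of 0.0523. The single Aph+ SCNT array was placed in the blastocyst block by its sample type label and column header. Its title has the form of the untimed arrays, so the blocked values that use this array rest on that choice. The cause of the changed calls was not tested.

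Under 75th percentile scaling the median difference over all genes was 0.32 for Aph+ against Aph- fertilized embryos, instead of -0.03, and -0.63 for Aph- fertilized embryos against the oocyte, instead of 0.06. The share of calls that were higher went from 43.2% to 57.3% for Aph+ against Aph- fertilized embryos, 48.1% to 25.6% for Aph+ against Aph- SCNT embryos, 29.1% to 41.2% for Aph- SCNT against Aph- fertilized embryos, 54.0% to 20.8% for Aph+ SCNT against Aph+ fertilized embryos, 45.3% to 32.9% and 50.6% to 9.02% for Aph+ fertilized and Aph+ SCNT embryos against the oocyte, 62.9% to 17.6% for Aph+ SCNT embryos against cumulus cells and 52.6% to 27.7% for the interaction. The deposited log2 values gave 13.5% for Aph- SCNT against Aph- fertilized embryos. Over all single-gene results and alternatives, 32 became called and 48 were no longer called. The dim Aph+ arrays limit what can be measured of genes near background.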
